A study of Mus musculus with 36 samples.

Results

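CD45.2 alveolar macrophages (AΦ), the tissue-resident AΦ (TR-AΦ) of lung-shielded chimeric mice, were compared with CD45.2 monocytes sorted from lungs after the same 32 weeks of exposure. The comparison took 6 TR-AΦ libraries and 6 monocyte libraries out of the 36 RNA-sequencing libraries of the study. The 13056 genes described were those of the 27562 listed whose FPKM (fragments counted for a gene, divided by its transcript length and by the library's mapped fragments, so a level per length) averaged at least 1 over these 12 libraries. Each cell type had 3 mice in filtered air (FA) and 3 mice in concentrated ambient fine particles (PM2.5), and exposure was a term of the fit. The other libraries were AΦ and monocytes of CD45.1 origin at 32 weeks and AΦ and monocytes at 4 weeks. All mice were C57BL/6J males (CD45.2) that had been irradiated with the chest behind a lead block, given busulfan and transplanted with marrow of B6.SJL-Ptprca Pepcb/BoyJ (CD45.1) mice, so that the FA controls carried the same chimerism as the PM2.5 groups. Blood myeloid cells of such mice are mostly of donor origin, and where their CD45.2 lung monocytes came from was not tested. All populations of an exposure group may come from the same mice, which the labels do not tie to libraries. AΦ had been gated as CD64+ CD11c-high CD11b-low cells, and monocytes as Ly6G- MHC II- CD64-low CD11b-high cells. In the labels the 32-week populations are told apart by a number alone, 1 being taken as CD45.1 and 2 as CD45.2. The 4-week populations carry no number and were treated as CD45.2. Values per gene do not tell the alleles of Ptprc (CD45) apart, so the origin of a library could not be checked in these data.

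AΦ live on the air side of the alveolus, where they take up surfactant lipid and inhaled particles. They are kept in this state by granulocyte-macrophage colony-stimulating factor (GM-CSF) and TGF-beta acting through the nuclear receptor PPARγ. Monocytes are made in the marrow, leave the blood guided by chemokine receptors such as CCR2, and can become interstitial macrophages of the lung wall or, when the niche is empty, AΦ.

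The difference between the cell types was wide. Of the 13056 genes tested, 5872 (45%) passed an adjusted p of 0.05 (limma on log2(FPKM + 1), Benjamini-Hochberg), with 2918 (22.3%) higher and 2954 (22.6%) lower in TR-AΦ. These shares are the background against which each group of genes is read, and the median log2 fold change over all genes tested was 0.014. At least 32-fold differences on this scale were counted for 15 higher and 54 lower genes, and at least 4-fold differences for 366 and 600. The 6 TR-AΦ values and the 6 monocyte values did not overlap at all for 3629 genes (27.8%). Because 1 was added to each FPKM, fold changes of low genes are understated. In bulk RNA, fewer cells of a type and less RNA per cell cannot be told apart.

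The libraries fell into the labelled cell types. The first principal component held 35.1% of the variance, with TR-AΦ at 66.7 to 71.6 and monocytes at -75.4 to -68.9, except for replicate 1 of the PM2.5 monocytes at -55.9. That library also held more AΦ transcript. The median of 26 AΦ markers stood at 15.1% of the TR-AΦ mean there, against 2.32% to 5.16% in the other monocyte libraries. Without it 5627 genes were called. FPKM summed to between 1839577 and 2843851 per library, the 10 most abundant genes took 27.8% to 33.3% of the sum, and 11469 to 12759 genes reached 1 FPKM. The methods give only a single nominal depth for all libraries, and the depth behind a value could not be taken from FPKM. Gapdh, a glycolytic enzyme of all cells, was at 0.388 to 2.77 FPKM in TR-AΦ and 0.399 to 1.04 FPKM in monocytes, so a value near 0 in these files does not by itself mean that a gene was silent.

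The genes behind the sort gates were checked first, and as genes used to choose the cells they are no finding. Itgax (CD11c) had 65, 67.4 and 73.9 FPKM in TR-AΦ (lowest, median and highest of 6 libraries, the order used below) and 5.4, 12.6 and 19.3 FPKM in monocytes. Itgam (CD11b) had 0.593, 0.639 and 1.56 FPKM in TR-AΦ and 63.6, 75.9 and 142 FPKM in monocytes. Both followed the gates with no overlap. The gates were set on surface protein, while these values are RNA, and how far RNA follows surface protein here was not tested. Fcgr1 (CD64) did not follow its gate, with 13.7, 15.6 and 18.7 FPKM in TR-AΦ and 20.7, 26.5 and 39 FPKM in the CD64-low monocytes. MHC class II transcripts were abundant in the MHC II- monocytes. H2-Aa had 2060, 2260 and 2760 FPKM there against 797, 992 and 1270 FPKM in TR-AΦ, a log2 fold change of -1.26 ± 0.16 (SE) with an adjusted p of 5.28e-05. Csf1r, the receptor for the growth factor of monocytes and most macrophages, had 183, 205 and 211 FPKM in monocytes and 20.5, 25.4 and 28.9 FPKM in TR-AΦ.

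Genes that define AΦ were higher in TR-AΦ. All 26 AΦ markers were tested and all 26 were higher, with a median log2 fold change of 4.01 (22.3% of all genes were higher). Among them Itgax was a gate gene and Siglecf an alternative one in the methods, so their direction is no finding. Siglecf, the sialic acid receptor by which AΦ are recognized (chr7:43351341-43359531, GRCm38), had 115, 139 and 157 FPKM in TR-AΦ and 1.36, 2.19 and 8.99 FPKM in monocytes. Its log2 fold change was 5.22 ± 0.31 with an adjusted p of 1.68e-07, and no monocyte library came near the lowest TR-AΦ library. Perp, a p53 target of desmosomes and cell death (chr10:18845020-18857073), had the largest rise of the protein-coding genes called, at 118, 128 and 141 FPKM against 0.896, 1.71 and 6.51 FPKM, a log2 fold change of 5.47 ± 0.28. Plet1, a placenta-expressed surface protein, had 512, 579 and 685 FPKM against 7.86, 9.61 and 53.9 FPKM. Ear1, an eosinophil-associated ribonuclease, had 798, 1050 and 1280 FPKM against 14.3, 20.1 and 80.1 FPKM, with the caution that Ear1, Ear2 and Ear10 are near copies among which reads can be split. The keratins Krt19 and Krt79 and the potassium channel Kcnn3 differed by 5.28, 5.02 and 4.90 on the log2 scale. In each of these genes the groups stood apart, and for Plet1 the highest monocyte value was that of a single library. Replicate 1 of the PM2.5 monocytes held at least 5.06% of the TR-AΦ mean for every one of the 26 markers.

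**Figure D1:**
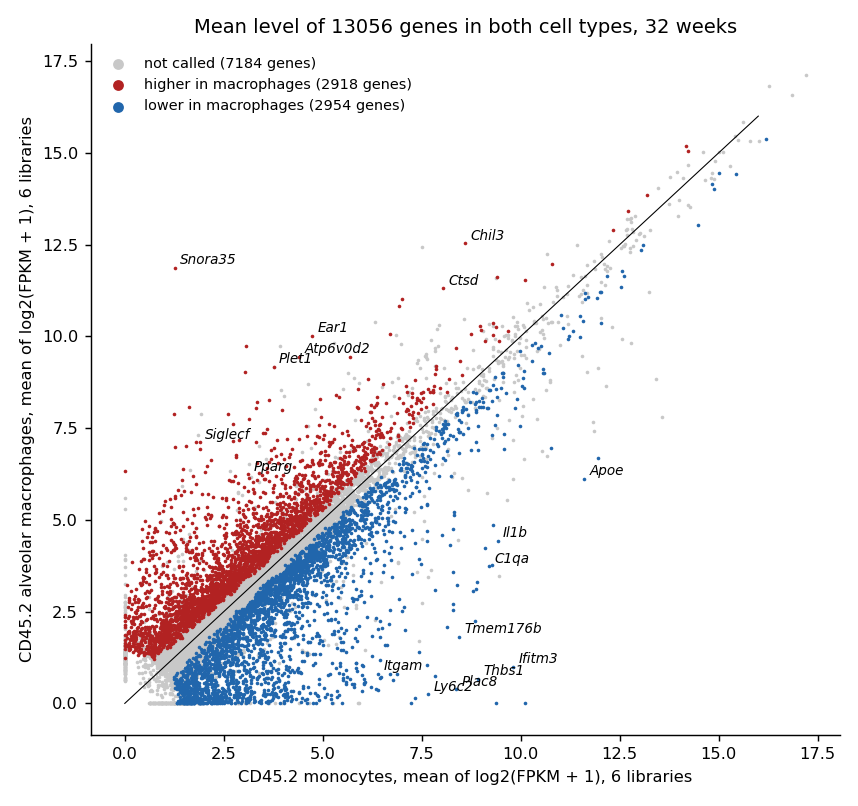
Mean of log2(FPKM + 1) in 6 TR-AΦ libraries (vertical axis) against 6 CD45.2 monocyte libraries (horizontal axis), 1 point per gene tested, coloured by call (2918 higher, 2954 lower) with a line at equal levels. Siglecf and Snora35 lie far above the line, and Ifitm3, Ly6c2 and Apoe far below it.

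The largest rise among the genes called was that of a small nucleolar RNA. Snora35, a guide RNA for pseudouridine (chrX:146994381-146994508), had 2610, 3520 and 5370 FPKM in TR-AΦ and 0, 0 and 185 FPKM in monocytes, a log2 fold change of 10.61 ± 1.14 with an adjusted p of 1.68e-05. FPKM of such short genes swing widely, since each read is divided by a small length. Snora47 went the other way, with 0, 0 and 117 FPKM in TR-AΦ and 199, 520 and 857 FPKM in monocytes (-6.59 ± 1.36, adjusted p 0.00205). Among the 302 small nucleolar RNAs tested, 6 were higher and 28 lower, both shares well below those of all genes (22.3% and 22.6%). Most of this class was thus not called. Among the 139 long intergenic RNAs 20 were higher and 49 lower, the first share below and the second above that of all genes.

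Genes of circulating monocytes were lower in TR-AΦ, often at or near 0. Of the 16 monocyte markers, 15 were lower and 1 higher, with a median of -5.67 (22.6% of all genes were lower). Itgam, a gate gene, is in this list, and its direction is no finding. Of the 16 markers, 10 averaged under 1 FPKM in TR-AΦ and 0 did in monocytes. Those 10 passed the filter only through the monocytes, which fixed their direction. Ifitm3, an interferon-induced membrane protein that blocks virus entry (chr7:141009586-141010770), had 0, 1.15 and 3.19 FPKM in TR-AΦ and 570, 866 and 1350 FPKM in monocytes, a log2 fold change of -8.81 ± 0.32 with an adjusted p of 8.06e-09. Ly6c2, the antigen of classical mouse monocytes, had 0, 0 and 1.82 FPKM against 127, 207 and 322 FPKM (-7.41 ± 0.32). Plac8, expressed in marrow-derived myeloid cells, had 0, 0 and 1.49 FPKM against 170, 352 and 559 FPKM (-7.99 ± 0.37). None of these 3 genes reached 5 FPKM in a TR-AΦ library, while every monocyte library was above 100 FPKM. Thbs1, the matrix protein thrombospondin, varied widely among monocytes, from 193 to 2770 FPKM, and stayed between 0.175 and 2.68 FPKM in TR-AΦ (-8.26 ± 0.53). Plbd1, Tmem176b, F13a1 and Hp followed at -7.11, -6.62, -6.59 and -6.14. The marker that went against the list was Chil3, a chitinase-like protein of both classical monocytes and AΦ, with 3980, 6180 and 8160 FPKM in TR-AΦ and 169, 385 and 1140 FPKM in monocytes (3.93 ± 0.45). Of the 12 classical monocyte markers tested 8 were lower and 2 higher, and of the 17 non-classical ones 11 were lower and 3 higher.

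The CD45.2 monocyte libraries also carried genes of interstitial macrophages at high level. Of 14 markers tested, 13 were lower in TR-AΦ and 1 higher, with a median of -4.59. Of the 15 listed, 5 averaged under 1 FPKM in TR-AΦ and 0 did in monocytes. Any of those 5 that were tested passed the filter only through the monocytes, which fixed their direction. C1qa, the A chain of complement C1q, had 8, 11.7 and 24.1 FPKM in TR-AΦ and 314, 579 and 1210 FPKM in monocytes (-5.47 ± 0.37, adjusted p 4.42e-07). Cd163, the haptoglobin-haemoglobin scavenger receptor, had 0.457, 0.947 and 2.91 FPKM against 29.3, 56.4 and 130 FPKM (-4.75 ± 0.33). Apoe, the lipid carrier of lipoproteins, had 43.5, 70.7 and 109 FPKM against 2300, 3060 and 5340 FPKM (-5.49 ± 0.25). The exception was Mrc1, the mannose receptor that AΦ share with interstitial macrophages, at 205, 256 and 281 FPKM against 47.8, 69.6 and 126 FPKM (1.71 ± 0.23). Summed over the list, the monocyte libraries held 3500 to 9710 FPKM and the TR-AΦ libraries 329 to 491 FPKM. Among monocyte libraries C1qa and Ly6c2 ran in nearly opposite order. C1qa was highest in replicates 0 and 1 of FA and replicate 1 of PM2.5 (1206, 670.5 and 1031 FPKM), where Ly6c2 was lowest (132.9, 188.8 and 126.9 FPKM). How far interstitial macrophages within the monocyte gate enter each difference was not tested.

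**Figure D2:**
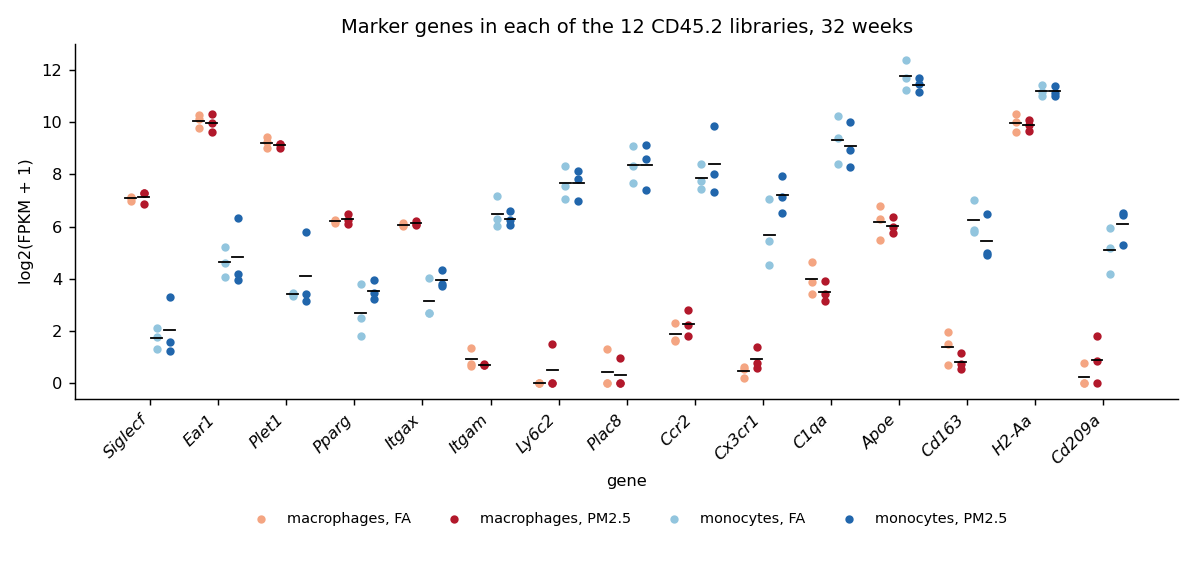
Log2(FPKM + 1) of marker genes and gate genes, 1 point per library, with a bar at the mean of the 3 libraries of each cell type and exposure. TR-AΦ points lie above monocyte points for Siglecf, Ear1, Plet1, Pparg and Itgax, and below them for the monocyte genes such as Ly6c2 and the interstitial macrophage genes such as C1qa.

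Markers of other cell types ranged from absent to clearly present. Of 10 NK cell markers and 8 listed markers of eosinophils, basophils and mast cells none averaged 1 FPKM over the 12 libraries, and summed NK markers reached 1.54 FPKM in TR-AΦ and 5.09 FPKM in monocytes. Neutrophil markers summed to 5.44 to 14.2 FPKM in TR-AΦ and 36.6 to 62.8 FPKM in monocytes, with S100a9 at no more than 1.87 and 5.97 FPKM. Dendritic cell markers summed to 9.13 to 37.8 and 68.3 to 260 FPKM, and 8 of the 10 tested were lower in TR-AΦ and none higher (median -2.27), as were Cd86, Cd40, Flt3 and the MHC class II genes. Of the 12 dendritic cell markers listed, 8 averaged under 1 FPKM in TR-AΦ and 3 in monocytes. Most of those tested thus passed the filter only through the monocytes, which fixed their direction. B cell markers summed to 4.37 to 21.9 and 33.1 to 72.8 FPKM, platelet markers to 1.04 to 17.8 and 77.4 to 291 FPKM (nearly all Pf4, which interstitial macrophages also express), alveolar type 2 and club cell markers to 11.4 to 84.3 and 25.7 to 76.5 FPKM, endothelial and stromal markers to 8.11 to 21.2 and 16.6 to 49.2 FPKM, and red cell markers to 0 to 57.7 and 0 to 85.8 FPKM. Their part in any difference was not tested. Cd2, an adhesion receptor of T cells, was an exception in TR-AΦ with 180, 220 and 232 FPKM against 4.75, 7.44 and 18.6 FPKM in monocytes (4.62 ± 0.23), while 11 of the 12 T cell markers averaged under 1 FPKM in TR-AΦ. Cd4, also made by some macrophages, was lower in TR-AΦ (-3.32). Of the 3 B cell markers tested 2 were lower and 1 higher. The immunoglobulin heavy chain gene Ighm was lower (-4.37), while the light chain gene Igkc was higher (2.28).

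Transcription factors went both ways. Of 36 tested, 13 were higher and 15 lower in TR-AΦ, with a median of -0.35. Pparg, which encodes the nuclear receptor that AΦ need to handle lipid, had 67.8, 73.9 and 89.4 FPKM against 2.48, 9.17 and 14.3 FPKM (3.13 ± 0.30, adjusted p 6.7e-06). Bhlhe41, a repressor tied to AΦ self-renewal, had 30.8, 34.6 and 68.3 FPKM against 1.02, 2.57 and 10.9 FPKM (3.27 ± 0.40), and its relative Bhlhe40 differed by 1.82. Maf, a factor of mature macrophages, had 0.259, 0.954 and 1.35 FPKM against 31.5, 50.2 and 67 FPKM (-4.69 ± 0.24). Runx3, a factor of lymphoid and dendritic cells, had 0.101, 0.183 and 1.01 FPKM against 48.8, 82 and 159 FPKM (-6.02 ± 0.23). Maf and Runx3 were thus low in every TR-AΦ library, while Pparg and Bhlhe41 were below the TR-AΦ range in every monocyte library. Spi1, the PU.1 gene common to all these cells, had 96.6, 110 and 114 FPKM against 78.1, 84.5 and 108 FPKM and did not pass the test (0.28 ± 0.11, adjusted p 0.0589).

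Growth factor and TGF-beta receptor genes went both ways. Of 24 tested, 6 were higher (25%, near the 22.3% of all genes) and 12 lower (50%, against 22.6%), with a median of -0.49. The GM-CSF receptor subunits Csf2ra, Csf2rb and Csf2rb2 differed by 0.76, 1.02 and 1.29, and the TGF-beta receptors Tgfbr1 and Tgfbr2 by 0.89 and 1.03. Csf2ra overlapped between groups at 133 to 245 FPKM in TR-AΦ and 74 to 137 FPKM in monocytes, while Tgfbr2 did not at 134 to 181 and 46.6 to 110 FPKM. Csf1r (-2.95 ± 0.11), the G-CSF receptor gene Csf3r (-2.52) and Flt3 (-3.21) were lower.

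Guidance genes went both ways, and lower more often. Of 16 chemokine and chemoattractant receptors tested, 10 were lower and 6 higher, and of 22 chemokines 13 were lower and 3 higher, with medians of -2.48 and -1.97. Ccr2, the receptor that draws monocytes out of the marrow, had 2.09, 3.11 and 6.01 FPKM in TR-AΦ and 159, 238 and 938 FPKM in monocytes (-6.06 ± 0.38). Cx3cr1, the fractalkine receptor, had 0.137, 0.53 and 1.63 FPKM against 22.2, 112 and 248 FPKM (-5.76 ± 0.41). Fpr1, which senses bacterial formyl peptides, stood out on the other side with 242, 316 and 386 FPKM against 6.51, 9.11 and 37.6 FPKM (4.62 ± 0.35). Among ligands, Ccl6 was higher with 2020, 3320 and 4500 FPKM against 490, 626 and 1040 FPKM (2.24 ± 0.25). Cxcl13, the B cell attractant, Cxcl16 and Ccl2 were lower by log2 fold changes of -5.07, -4.07 and -3.40.

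Inflammatory mediators were mostly lower in TR-AΦ. Of 27 cytokine genes tested 14 were lower and 6 higher (median -0.40), and of 30 immediate early genes 20 were lower and 2 higher (median -1.28). Il1b, the interleukin 1 beta gene, had 9.14, 14.7 and 102 FPKM in TR-AΦ and 439, 586 and 2350 FPKM in monocytes (-4.99 ± 0.56, adjusted p 2.53e-05). The groups did not overlap, but 1 TR-AΦ library was well above the other five. Tnf did not pass the test, with 55.2, 62.4 and 99.6 FPKM against 40, 46.7 and 66 FPKM (0.41 ± 0.17, adjusted p 0.0729). Il18, an inflammasome cytokine that AΦ keep in store, had 24.4, 34.4 and 43.4 FPKM against 0.803, 4.48 and 5.28 FPKM (2.94 ± 0.28), and the phosphoprotein gene Spp1 differed by 3.80. Dusp2, a phosphatase induced by stimulation, differed by -5.03, and Egr2 and Myc were the immediate early genes that were higher (1.71 and 1.13).

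Eicosanoid genes went both ways, with 7 of the 17 tested higher and 8 lower. Ptgs2, the inducible cyclooxygenase of prostaglandin synthesis, had 0.117, 0.441 and 3.23 FPKM in TR-AΦ and 35.2, 77.9 and 364 FPKM in monocytes (-5.76 ± 0.50). Of the leukotriene enzymes, Ltc4s was higher at 147, 174 and 243 FPKM against 3.22, 13.2 and 17.5 FPKM (3.90 ± 0.33), and Alox5 at 69.9, 114 and 119 FPKM against 7.78, 14.8 and 28 FPKM (2.63 ± 0.26). Alox5ap, which presents arachidonic acid to Alox5, had 81.8, 99.3 and 121 FPKM against 81.8, 122 and 153 FPKM and did not pass the test (adjusted p 0.321). Ltb4r1, the leukotriene B4 receptor, was lower (-4.08 ± 0.35).

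No tested interferon-induced gene was higher in TR-AΦ. Of 36 members 28 were lower, with a median of -1.87. Irf7, the amplifier of type I interferon, had 0.614, 1.15 and 1.67 FPKM against 23.3, 44.8 and 64.7 FPKM (-4.34 ± 0.24, adjusted p 1.28e-07). Isg15, a ubiquitin-like modifier, had 0, 1.1 and 3.2 FPKM against 2.97, 8.06 and 15.3 FPKM (-1.99 ± 0.42), and its groups overlapped slightly. Ifitm1, Ifitm6 and Ifi27l2a differed by -4.46, -7.20 and -4.75, and since the Ifitm genes are similar in sequence their reads may be shared. The RNA sensor gene Ifih1 did not pass the test (-0.06). Antigen presentation genes were lower in 11 of 25 and higher in none, with the costimulators Cd86 and Cd40 at -3.03 and -2.84. Pattern recognition genes were lower in 13 of 28 and higher in 2. Tlr9, the sensor of unmethylated DNA, had 0.217, 0.493 and 0.677 FPKM against 41, 57.8 and 71.4 FPKM (-5.27 ± 0.14). The 2 higher ones were Tlr4, the endotoxin receptor, at 61.7, 70.2 and 79.9 FPKM against 12.8, 23.3 and 29.8 FPKM (1.61 ± 0.17), and Tlr2 (0.95 ± 0.15), while the endotoxin coreceptor Cd14 was lower (-2.43 ± 0.35).

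Genes of lipid handling were mostly higher. Of 36 genes of lipid uptake, storage and efflux 20 were higher and 6 lower in TR-AΦ (median 0.80), and of 29 fatty acid oxidation genes 24 were higher and none lower (median 1.16). Lpl, lipoprotein lipase, had 188, 238 and 358 FPKM against 8.56, 13.9 and 30.9 FPKM (4.01 ± 0.22). Abcg1, the cholesterol exporter, had 638, 695 and 727 FPKM against 36.3, 46.2 and 103 FPKM (3.75 ± 0.22). Cidec, which enlarges lipid droplets, had 117, 139 and 158 FPKM against 1.03, 1.78 and 10.5 FPKM (5.32 ± 0.37). Each of these was several times higher in the lowest TR-AΦ library than in the highest monocyte library. Of the oxidation genes, Acaa1b, a thiolase of peroxisomes, had 42, 52 and 73.5 FPKM against 0.477, 1.04 and 4.54 FPKM (4.45 ± 0.37, adjusted p 2.37e-06). Cpt1a, the gate to mitochondrial oxidation, differed less (1.42 ± 0.23). Apoe and the lipoprotein lipase cofactor Apoc2 (-5.49 and -5.48) were the members furthest the other way.

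Genes of mitochondrial respiration were higher where they were called. Of 69 nuclear-encoded respiratory chain genes 29 were higher and none lower (median 0.42), and of 20 tricarboxylic acid cycle genes 7 were higher and none lower (median 0.30). Cox5a, a cytochrome c oxidase subunit, had 24.3, 30.7 and 44.2 FPKM against 7.27, 13.6 and 16 FPKM (1.26 ± 0.21). With libraries rescaled to one sum, 43 respiratory chain genes were higher. That rescaling also moved the counts over all genes, from 2918 to 3550 higher and from 2954 to 2256 lower. Glycolysis was mixed, with 7 of 24 genes higher and 11 lower, or 8 and 8 after that rescaling. Aldoa and Aldoc, the aldolases, were higher (1.54 and 2.68), while the glucose transporter gene Slc2a1, at 8.47, 13 and 14.6 FPKM against 18.8, 28.8 and 70.7 FPKM (-1.24 ± 0.26), and the hexokinase gene Hk1 (-1.18) were lower. Ribosomal protein genes were lower in 39 of 66 and higher in 1 (median -0.52), and in 27 after rescaling. Rps24 had 150, 177 and 210 FPKM against 327, 418 and 518 FPKM (-1.18 ± 0.14).

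**Figure D3:**
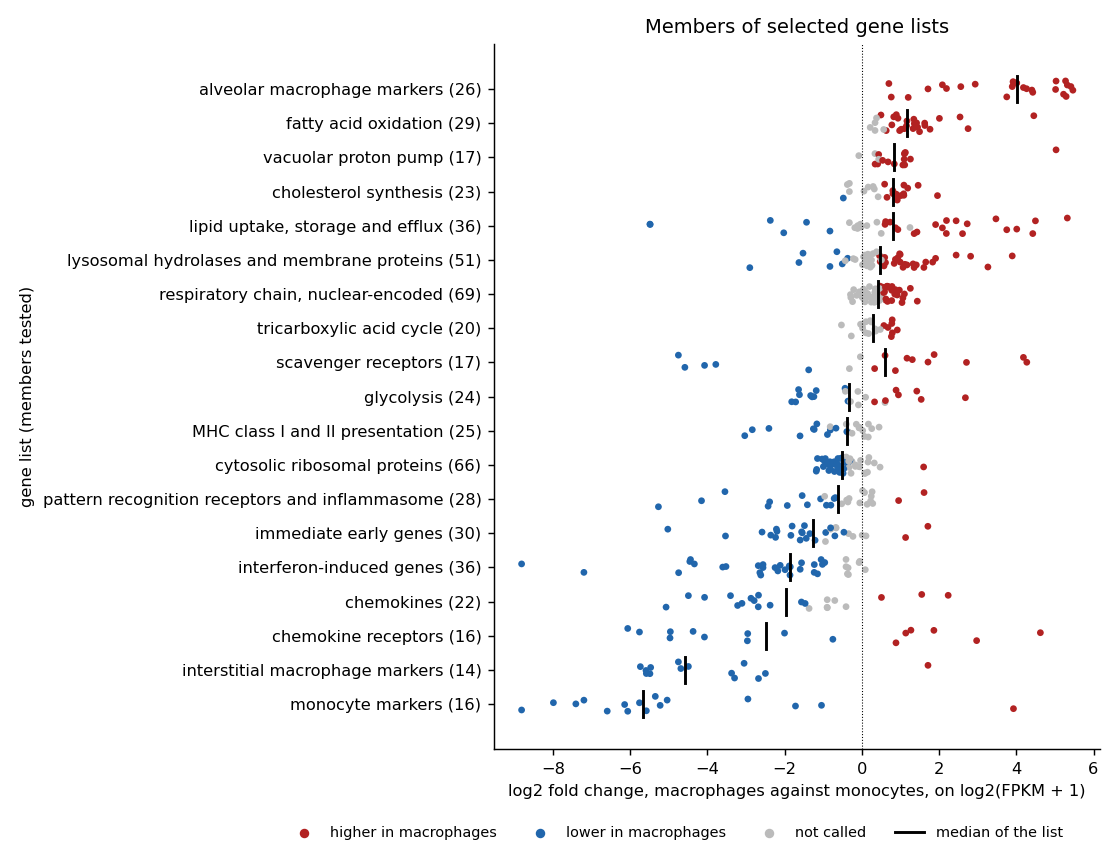
Log2 fold change of TR-AΦ over CD45.2 monocytes on the log2(FPKM + 1) scale for the tested members of selected gene lists, 1 point per gene coloured by call, with a bar at each list's median and the number tested in brackets. The medians of fatty acid oxidation (1.16) and the proton pump (0.84) lie above the all-gene median of 0.014, and those of interferon-induced genes (-1.87) and interstitial macrophage markers (-4.59) below it.

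Lysosomal genes were more often higher than lower. Of 51 hydrolases and membrane proteins 25 were higher and 7 lower (median 0.48), and of 17 subunits of the vacuolar proton pump, which acidifies the lysosome, 14 were higher and none lower (median 0.84). Ctsd, the aspartic protease cathepsin D, had 2210, 2520 and 2860 FPKM against 171, 231 and 567 FPKM (3.27 ± 0.26, adjusted p 1.38e-06). Ctsk, cathepsin K, had 70.1, 109 and 138 FPKM against 2.43, 5.02 and 37.1 FPKM (3.90 ± 0.49). Atp6v0d2, a pump subunit restricted to few cell types, had 522, 740 and 836 FPKM against 12.6, 16.7 and 84.1 FPKM (5.03 ± 0.39), and Atp6v0d1, its common counterpart, differed by 1.11. Against the trend, Sgsh, the heparan N-sulfatase, had 0.159, 0.679 and 1.05 FPKM against 8.96, 11.4 and 12.6 FPKM (-2.90 ± 0.15).

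The promoters of these lysosomal genes are shown because the CLEAR element, TCACGTGA, is the binding site of TFEB, the master factor of lysosome genes. In RefSeq windows from 250 bases before to 50 bases after the start site (GRCm38.p6), searched on both strands, it was found in 304 of 27025 genes (1.12%), in 4 of 41 lysosomal genes with a window (9.76%) and in 3 of 11 proton pump genes (27.3%). The PU.1 site GAGGAAGT was found in 997 genes (3.69%), in 4 lysosomal genes and in no proton pump gene. The sequences below run 5′ to 3′ on the strand of the gene and end at or before its start site, with the element in capitals. For Ctsd the window shown is chr7:142387859-142387986, minus strand, for Mcoln1 (a lysosomal calcium channel, 1.11 ± 0.13) chr8:3500413-3500518, plus strand, and for Atp6v1a chr16:44139324-44139451, minus strand.
Ctsd: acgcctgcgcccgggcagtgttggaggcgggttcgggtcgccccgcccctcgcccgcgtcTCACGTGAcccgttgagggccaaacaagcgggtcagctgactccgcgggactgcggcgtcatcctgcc
Mcoln1: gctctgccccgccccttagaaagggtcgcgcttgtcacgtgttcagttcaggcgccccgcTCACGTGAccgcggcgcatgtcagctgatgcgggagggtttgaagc
Atp6v1a: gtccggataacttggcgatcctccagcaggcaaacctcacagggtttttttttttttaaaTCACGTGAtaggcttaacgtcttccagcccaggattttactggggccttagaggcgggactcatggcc
Of the 7 lysosomal and pump genes with the element 4 were higher in TR-AΦ, namely Ctsd, Mcoln1, Atp6v0d1 (1.11) and Atp6v0e (1.10). In the lists as a whole 49% of lysosomal and 82.4% of pump genes were higher, against 22.3% of all genes. Whether the element bears on the differences was not tested. Atp6v1a, a catalytic pump subunit, had 54.4, 61.7 and 74.2 FPKM against 34.1, 46.8 and 68.1 FPKM and did not pass the test (0.44 ± 0.18, adjusted p 0.0647). Ctsa and Gla, which also hold it, did not pass either (0.19 and 0.16).

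Cholesterol synthesis genes were higher in 14 of 23 and lower in 1 (median 0.80). Dhcr7, which makes cholesterol in the last step of one branch, had 16.8, 22.3 and 24.9 FPKM against 3.59, 4.8 and 6.45 FPKM (1.96 ± 0.15, adjusted p 1.19e-06). Hmgcs1, which makes HMG-CoA at the start of the pathway, had 26, 36.9 and 39.2 FPKM against 7.32, 14.9 and 30.6 FPKM, with some overlap (1.19 ± 0.28, adjusted p 0.00522). The lower gene was Insig1, a sterol sensor partner (-0.48, adjusted p 0.0228), whose call was lost when libraries were rescaled. A sterol response element, TCACNCCAC, was found in 388 of all genes with a window (1.44%). Of the 16 genes of this pathway with a window, 1 held it (6.25%), namely Hmgcs1. Its stretch (chr13:119690154-119690282, plus strand) is shown with the element in capitals.
Hmgcs1: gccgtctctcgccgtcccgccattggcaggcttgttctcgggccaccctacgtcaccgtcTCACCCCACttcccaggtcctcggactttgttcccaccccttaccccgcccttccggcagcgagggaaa

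Surface receptors for particles and dying cells differed by member. Of 17 scavenger receptors 10 were higher and 5 lower (median 0.60). Marco, which binds inhaled particles, had 23.8, 39.9 and 77.8 FPKM against 0.483, 0.921 and 4.86 FPKM (4.18 ± 0.34). Olr1, the receptor for oxidized LDL, had 124, 131 and 179 FPKM against 3.47, 5.38 and 22.1 FPKM (4.27 ± 0.33). Axl, a receptor for apoptotic cells, had 392, 476 and 505 FPKM against 32.1, 76.8 and 127 FPKM (2.71 ± 0.28). Msr1, the class A scavenger receptor, had 1.35, 2.09 and 4.11 FPKM against 28.5, 42.1 and 73.6 FPKM (-3.78 ± 0.21), so Marco and Msr1, of the same class, went opposite ways. C-type lectin and Fc receptors were lower in 13 of 24 and higher in 5, and inhibitory receptors were higher in 7 and lower in 7 of 21.

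Cell cycle genes were higher in 12 and lower in 7 of 40 (median 0.54). Ccnd2, cyclin D2, had 81.8, 129 and 161 FPKM against 4.94, 13.6 and 23.7 FPKM (3.20 ± 0.32), and Ccnd1, cyclin D1, had 0.349, 0.903 and 1.66 FPKM against 3.79, 11.4 and 19.5 FPKM (-2.69 ± 0.27). Mki67, the marker of cycling cells, overlapped at 6.57, 9.28 and 20.5 FPKM against 3.57, 6.76 and 10.9 FPKM and did not pass the test (0.63 ± 0.30, adjusted p 0.114). Coagulation genes were higher in 9 and lower in 5 of 18. F7, factor VII, had 73.7, 75.6 and 84.8 FPKM against 1.68, 1.91 and 13.7 FPKM (4.28 ± 0.36). The S100 and antimicrobial list was higher in 15 and lower in 7 of 24, and the calcium-binding proteins S100a4 and S100a6, linked to motility, were lower (-3.91 and -2.14). Heat shock genes were higher in 3 and lower in 5 of 18, with Hspa1a, which has a near copy, at -3.28. Other lists were mixed, such as NRF2 targets with 10 higher and 5 lower of 30, iron handling with 6 and 9 of 20, actin regulators with 10 and 10 of 31, adhesion genes with 9 and 15 of 31 and apoptosis regulators with 8 and 10 of 27. Complement genes were higher in 5 and lower in 9 of 16, matrix metalloproteinases and their inhibitors higher in 1 and lower in 7 of 12, and the oxidase, nitric oxide and arginase genes higher in 2 and lower in 3 of 7. Only 2 of the 13 mitochondrially encoded genes were listed, and neither averaged 1 FPKM.

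Some genes were listed at 0 in every library of 1 cell type, so their fold change rests on the 1 added to each FPKM. At 0 in all 6 TR-AΦ libraries and at 1 FPKM or more in all 6 monocyte libraries were 27 genes. Ms4a4c, a tetraspan protein of monocytes, had 20.6, 35.2 and 69.8 FPKM in monocytes, Arhgef37 had 8.43, 14.1 and 21.5 FPKM, and F5, coagulation factor V, had 5.19, 12.7 and 27.6 FPKM. The reverse held for 3 genes, of which Acot4, a peroxisomal thioesterase, had 2.47, 3.85 and 4.81 FPKM in TR-AΦ.

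TR-AΦ and monocytes differed in 4038 genes in FA (30.9%) and in 3588 genes in PM2.5 (27.5%), 2964 genes were called in both, and 2963 of these had the same direction. Of the genes called in either exposure, 93 had opposite signs in FA and PM2.5. The test of the difference itself, the interaction of cell type and exposure, called 1 gene (0.00766%), with 351 genes at an unadjusted p under 0.05. That gene was Gm15198, a predicted gene listed at 0 in the 3 FA TR-AΦ libraries and in all monocyte libraries and at 27.24, 30.45 and 24.15 FPKM in the PM2.5 TR-AΦ libraries (adjusted p 7.5e-05). It was not called when a mean of at least 5 FPKM was required, nor when replicate numbers entered the fit as a block. Elsewhere it was at 31.72 FPKM in 1 CD45.1 AΦ library and at 34.52 and 34.13 FPKM in 4-week monocyte libraries, and at 0 in all others. Leaving out replicate 0 of the PM2.5 TR-AΦ raised the count of genes called to 8.

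**Figure D4:**
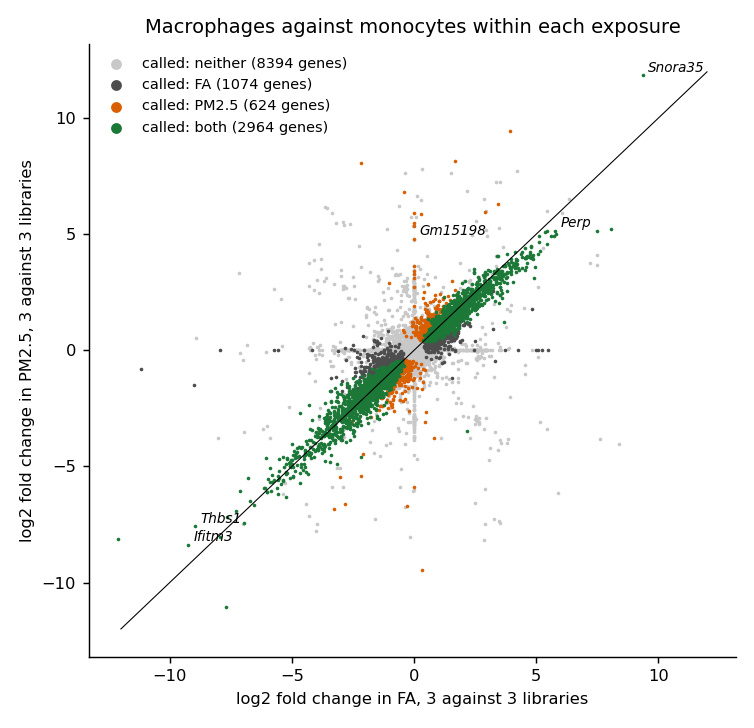
Log2 fold change of TR-AΦ over CD45.2 monocytes in FA (horizontal axis) and in PM2.5 (vertical axis), 3 against 3 libraries each, 1 point per gene tested, with a line at equal values. The 2964 genes called in both exposures run along the line, while Gm15198 sits at 0 in FA.

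The same contrast was then set against that of the CD45.1 cells, AΦ and monocytes derived from the transplanted marrow, with no library in common. The 2 contrasts differed in 153 of 13174 genes (1.16%), 22 in the direction of a higher (0.167%) and 131 of a lower (0.994%) log2 fold change in CD45.2 cells. Of the 14 interstitial macrophage markers 10 were among the lower (median difference -2.44). C1qa had 118, 164 and 418 FPKM in CD45.1 monocytes and 15.5, 66.8 and 126 FPKM in CD45.1 AΦ, and its contrast was -5.47 in CD45.2 and -1.81 in CD45.1 cells (difference -3.66 ± 0.68, adjusted p 0.00898). Cd163 differed by -3.02, and in CD45.1 monocytes it had only 2.6, 4.02 and 5.45 FPKM. Pf4 differed by -4.49, with 6.55, 19.2 and 31.5 FPKM in CD45.1 monocytes. For these genes the CD45.2 monocytes were thus the group with the highest level, and for C1qa the CD45.1 AΦ were also above the TR-AΦ median. Apoe did not pass this test (adjusted p 0.172).

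Of the 26 AΦ markers 5 differed between the contrasts by origin, 1 in the higher and 4 in the lower direction, against 0.167% and 0.994% of all genes. Marco was higher, its contrast larger by 2.66 (adjusted p 0.0054), as CD45.1 AΦ had 0.743, 1.78 and 6.85 FPKM. Ear1 was lower by a difference of -3.59 (adjusted p 0.00342), with 0, 0.237 and 4.67 FPKM in CD45.1 monocytes, below the 14.3 to 80.1 FPKM of CD45.2 monocytes. Chil1, a chitinase-like protein, had 25.1, 43.6 and 63.2 FPKM in CD45.1 monocytes and 0, 0.183 and 0.414 FPKM in CD45.2 monocytes (difference 4.46, adjusted p 7.32e-06). Apoc1, an apolipoprotein, had 13.4, 35.4 and 56.3 FPKM in TR-AΦ and 0, 0 and 4.29 FPKM in CD45.1 AΦ (difference 3.87, adjusted p 0.00214). The median AΦ marker in CD45.1 monocyte libraries was at 0.612% to 5.67% of the TR-AΦ mean, a range that overlaps that of CD45.2 monocytes.

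Against the contrast of the 4-week populations, 826 of 13238 genes differed (6.24%), 343 higher (2.59%) and 483 lower (3.65%). All 14 tested interstitial macrophage markers were lower, with a median difference of -3.58. C1qa had 0.78, 57.9 and 167 FPKM in 4-week monocytes and 14.5, 41.8 and 197 FPKM in 4-week AΦ (difference -6.34, adjusted p 0.0113), and C1qb differed by -6.44. The 4-week libraries numbered 2 stood apart in both exposures, with C1qa at 0.7796 and 0.9998 FPKM in monocytes and at 79.16 and 196.9 FPKM in AΦ. Without these 4 libraries 521 genes differed, 13 of the 14 markers were lower (median difference -2.77), the 4-week contrast of C1qa turned from 0.87 to -1.72 and its difference was -3.75 (adjusted p 0.00734). Non-classical monocyte markers moved the other way, with 9 of 17 higher and none lower (median difference 1.76). Cd300e, an activating receptor of patrolling monocytes, had 67.9, 155 and 225 FPKM in 4-week monocytes against 1.05, 15.2 and 34.3 FPKM in CD45.2 monocytes at 32 weeks (difference 3.44, adjusted p 0.0025). Chil1 differed by 3.79, with 2.22, 41.4 and 71.6 FPKM in 4-week monocytes. Of 31 actin regulators 11 were higher and none lower (median difference 0.62). The higher calls depended on scaling. With libraries rescaled to one sum, 92 of all genes were higher and 435 lower, and the actin regulators were not counted again. Neutrophil markers summed to 45.6, 71.6 and 1170 FPKM in 4-week monocytes and to 36.6, 45.4 and 62.8 FPKM in CD45.2 monocytes at 32 weeks. NK cell markers summed to 7.65, 22.6 and 150 FPKM against 0.512, 2.76 and 5.09 FPKM. The part of such cells in the differences by time was not tested. The weeks of exposure, the age of the mice and the time since transplantation cannot be told apart in this comparison.

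The medians of gene groups in the 3 contrasts are given side by side, with no test between them. Fatty acid oxidation stood at 1.16 in CD45.2 cells at 32 weeks, 1.25 in CD45.1 cells and 1.02 at 4 weeks. Interferon-induced genes stood at -1.87, -1.86 and -2.20, lysosomal genes at 0.48, 0.72 and 0.68, the proton pump at 0.84, 0.92 and 0.43 and cholesterol synthesis at 0.80, 1.08 and 0.78. Interstitial macrophage markers stood at -4.59, -1.59 and 0.55, and the last of these was -0.58 without the 4-week libraries numbered 2, where its sign turned.

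**Figure D5:**
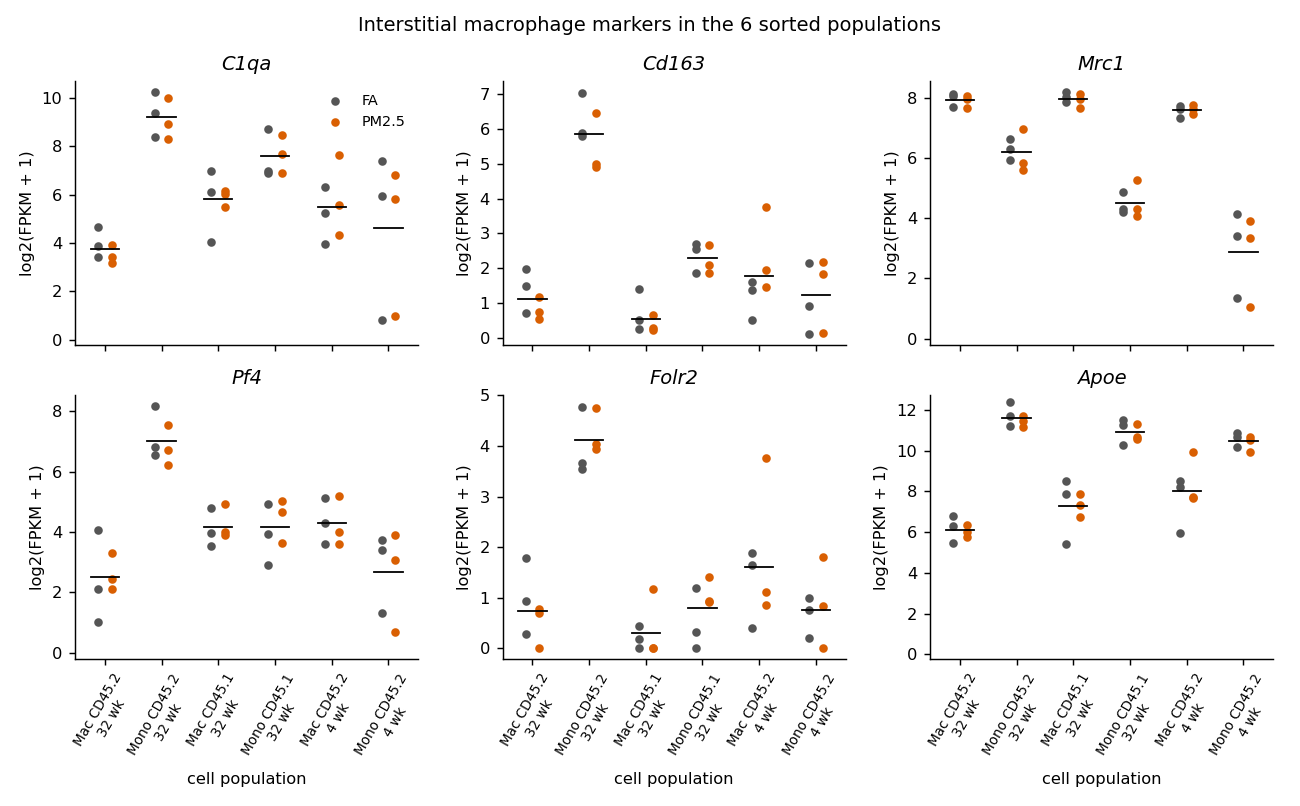
Log2(FPKM + 1) of C1qa, Cd163, Mrc1, Pf4, Folr2 and Apoe in AΦ (Mac) and monocytes (Mono) of each origin at 32 weeks and at 4 weeks, 1 point per library, coloured by exposure, with a bar at the mean of 6 libraries. For Cd163, Pf4 and Folr2 the CD45.2 monocytes at 32 weeks lie above nearly all other libraries, while for Apoe all 3 monocyte populations are high.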

How the data were processed

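RNA-seq of sorted mouse lung AΦ and monocytes, 3 libraries in each of 12 groups, whose populations may share mice, was taken as deposited. Values are FPKM per gene made by the authors from stranded libraries. The submitters' processing notes name STAR, Cufflinks, Cuffdiff and mm10, with no versions. The methods state a single nominal depth, and the depth of each library is unknown. Of 27562 gene IDs, 27413 matched GENCODE M21. The 4 groups (12 libraries) were compared with limma 3.58.1 in R 4.3.3, with a variance trend, on log2(FPKM + 1), with exposure as covariate and genes of mean FPKM of at least 1, and Benjamini-Hochberg adjustment at 0.05. Contrasts by origin and time used 24 libraries. The script was tested on simulated data. Deviations of same-numbered libraries hardly correlated (-0.007 to 0.068, and none above 0.1 in the other populations), which cannot exclude shared mice. The main fit has no block, since no label ties libraries to mice. The members and the 51 gene lists were chosen with earlier results of these data known. Genes named are the 10 largest non-overlapping calls in each direction, gate genes, up to 4 calls per list plus up to 2 against it, up to 5 per direction for each difference and the genes listed at 0 with the highest level. Known genes of each pathway named besides these were chosen after their values were seen. Figures used matplotlib 3.10.9 in Python 3.11.15. P-values measure the spread between libraries. Some genes are not reported here.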

Additional observations from a re-analysis of the deposited data

Results flagged for a closer look

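These are genes whose TR-AΦ over monocyte contrast differed between groups by a test of the difference itself (limma, Benjamini-Hochberg adjusted p), given as differences in log2 fold change. By exposure, Gm15198 differed by 4.82. By origin, CD45.2 minus CD45.1, the differences were 9.79 for Rn7s1, 8.96 for Gm23065, 7.56 for Gm26917, 4.46 for Chil1, 3.87 for Apoc1, -10.95 for Gm26041, -4.49 for Pf4, -3.79 for Tmem37, -3.73 for C1qc and -3.66 for C1qa. By time, 32 weeks minus 4 weeks, they were 7.85 for Gm22786, 6.47 for AC157602.1, 6.33 for Gm23065, 4.12 for Gm15198, 3.79 for Chil1, -9.38 for Gm26041, -6.44 for C1qb, -6.34 for C1qa, -6.3 for C1qc and -6.11 for Pf4. Without the 4-week libraries numbered 2, which stood apart in the C1q genes, C1qa, C1qb and C1qc differed by -3.75, -3.98 and -3.85 by time.

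Several of these rest on values of exactly 0. Rn7s1, a signal recognition particle RNA, was listed at 0 in all 6 CD45.1 AΦ libraries and in all 4-week libraries, against 587 to 1170 FPKM in TR-AΦ. Gm26917, a long non-coding RNA, was at 22600 to 38900 FPKM in TR-AΦ and at 0 to 35400 FPKM in CD45.1 AΦ. Gm23065 and Gm26041, annotated as ribosomal RNA genes, were listed at 0 in whole groups, and Gm26041 ran from 0 to 6010 FPKM within CD45.2 monocytes. Whether such zeros are failed estimates was not tested.

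In Tmem37, a membrane protein gene, no group had a whole set of zeros. It had 7.58, 14.3 and 32.8 FPKM in CD45.2 monocytes against 1.13, 3.98 and 6.52 FPKM in CD45.1 monocytes, with no overlap. The monocytes account for only part of its difference of -3.79, and the remainder lies in the AΦ, whose values are not given.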

How the results depend on the processing

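The count of genes that differed between cell types was 5872 and stayed within 1.5 times of this under another pseudocount, other filters, quantile normalization, a fit of all 36 libraries and with a replicate block (6189). A test for at least a 2-fold difference called 1254. Rescaling libraries to one sum moved the all-gene median to 0.165 and the split to 3550 higher and 2256 lower (61.1% higher against 49.7%). Protein-coding genes alone, a choice made after seeing the data, gave 5244. Leaving out 1 library at a time gave 5377 to 5806 genes, 3184 to 4078 in FA and 2751 to 3765 in PM2.5. The interaction with exposure called 5 genes with no filter, 0 with a mean of 5 FPKM (175 at an unadjusted p under 0.05) and 0 with the replicate block (507), and 1 without replicate 1 of the PM2.5 monocytes but 2 to 8 without any other single library. The difference by origin called 92 genes at a mean of 5 FPKM, 237 after rescaling, 155 without genes at 0 in a whole group (added after seeing the data) and 111 to 216 with 1 library left out. The difference by time called 527 after rescaling (92 higher and 435 lower, against 343 and 483 in the main fit). It called 1284 with the replicate block, 822 without genes at 0 in a whole group, 521 without the 4-week libraries numbered 2 (also added) and 607 to 988 with 1 library left out. Same-numbered libraries hardly deviated together over all genes (correlations of at most 0.068 in these cells, 0.078 at 4 weeks and 0.06 in CD45.1 cells). This cannot exclude shared mice, so whether the block pairs libraries of the same mouse is unknown. The first component held 40.2% at unit variance and 18% over the 500 most variable genes. Genes at 0 in 1 cell type and at 5 FPKM or more in the other numbered 7 for TR-AΦ and 0 for monocytes. Of 4770 values of named genes under alternatives, 4641 kept direction and side of the threshold, 120 lost the call, 7 gained one and 2 reversed, both Gm26917 (-0.13, against 0.11 with quantile normalization and 0.053 rescaled). The cause of these changes was not tested. The depth of each library is unknown, so the counting error of values near 0 was not estimated.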
